A study of Mus musculus with 6 samples.

Results

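The 39 genes described here make, modify and move cholesterol and fatty acids, and all 39 had values among the 20323 genes analysed. They were chosen by symbol: 20 genes of sterol synthesis and its control, 14 of fatty acid synthesis, desaturation, elongation and activation, and 5 of sterol uptake, efflux and storage. RNA was sequenced from cells of the mouse hippocampus that carried a membrane GFP and were collected by magnetic sorting against GFP. Every animal had the genotype Nestin-CreERT2;Rosa26-mGFP, in which a Cre driven by the Nestin promoter marks neural progenitor cells and their descendants. Every animal also received cuprizone, a copper chelator that kills oligodendrocytes, for 10 weeks and then had 4 weeks of recovery. In 3 animals the agent given was vehicle, saline with 0.1% bovine serum albumin. In the other 3 it was neuregulin 1 beta 1 (Nrg-1β1), a ligand of ErbB receptors. Each library came from 1 mouse brain. The dose was 60 per kg per day, in µg by the series text and in g by the sample labels, so its unit is uncertain. No age or sex is given in the labels.

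The brain makes nearly all of its own cholesterol, because lipoproteins of the blood do not cross the blood-brain barrier. Astrocytes are a main source for neurons, and oligodendrocytes make large amounts of cholesterol and long-chain fatty acids for myelin. When membrane sterol falls, the transcription factor SREBP2, encoded by Srebf2, enters the nucleus and activates the sterol enzymes, while its relative SREBP1, encoded by Srebf1, acts more on fatty acid genes. Insig proteins hold the SREBP precursors in the endoplasmic reticulum when sterol is plentiful. Oxidised sterols activate the liver X receptors, which raise the efflux transporters Abca1 and Abcg1.

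Cells in the sort were labelled neural progenitor cells, but markers of several other cell types were present. Summed over 7 markers each, oligodendrocyte genes reached 80732 to 178373 normalized counts per library and neural progenitor genes 626 to 1328. Most of each oligodendrocyte sum was Mbp, and sums of different genes do not give the proportions of cells. Depth ranged from 567073 to 72953034 recovered reads, and vehicle libraries 1 and 3 were far deeper than the other 4. Y-linked transcripts were few in vehicle libraries 1 and 2 (1.96 and 1.86 RPM, reads scaled to the library total) and amounted to at least 25.6 RPM in the other 4 libraries. Reads of the X-linked transcript Xist numbered 3255, 216 and 1045 in vehicle libraries 1 to 3. In Nrg-1β1 libraries 1 to 3 they numbered 2, 3 and 1. Vehicle library 3 thus held both Y-linked and Xist reads. Neither depth nor these transcripts were balanced between the groups, so depth, sex-linked transcripts and treatment cannot be told apart fully. Over all genes, 216 (1.06%) passed the threshold of an adjusted p of 0.05 (limma), 89 higher and 127 lower in Nrg-1β1. That count was between 0 and 56 when any single library was left out. A term for read depth class leaves only vehicle library 2 to carry the contrast, and a term for the Y-linked class only vehicle library 3. Counts of genes called are therefore not given for those fits.

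Upstream sequences of 4 of these genes are shown as examples from both synthesis branches. Hmgcs1 is a textbook SREBP target, Insig1 and Lss had Nrg-1β1 values that were all above the vehicle values, and Fads2 had the smallest p of the fatty acid genes. Each is the 250 bases before the start site, from RefSeq on GRCm38.p6, written 5′ to 3′ on the strand of the gene. The first bases after the RefSeq start were found in a GENCODE M21 transcript of the gene for Insig1 and Fads2 and not for Hmgcs1 and Lss, so for that pair the start may differ between annotations. Capitals mark CCAAT (the box bound by NF-Y), TCACCCCAC (the core of a sterol regulatory element), CACGTG (an E-box) and GGGCGG (a GC box), each searched on both strands, and no 2 matches overlap.
Hmgcs1, chr13:119690101-119690350, plus strand: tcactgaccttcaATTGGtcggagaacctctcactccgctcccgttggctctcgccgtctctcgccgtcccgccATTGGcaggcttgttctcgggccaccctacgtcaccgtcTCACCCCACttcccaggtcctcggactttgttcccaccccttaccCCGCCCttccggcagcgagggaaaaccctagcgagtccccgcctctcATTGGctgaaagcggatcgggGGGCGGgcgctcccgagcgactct
Insig1, chr5:28071162-28071411, plus strand: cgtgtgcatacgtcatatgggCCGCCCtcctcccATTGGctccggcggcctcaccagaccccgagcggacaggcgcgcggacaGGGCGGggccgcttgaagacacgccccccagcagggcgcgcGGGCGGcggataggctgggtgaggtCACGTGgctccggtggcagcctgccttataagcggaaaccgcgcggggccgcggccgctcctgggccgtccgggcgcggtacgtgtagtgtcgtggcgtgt
Lss, chr10:76531355-76531604, plus strand: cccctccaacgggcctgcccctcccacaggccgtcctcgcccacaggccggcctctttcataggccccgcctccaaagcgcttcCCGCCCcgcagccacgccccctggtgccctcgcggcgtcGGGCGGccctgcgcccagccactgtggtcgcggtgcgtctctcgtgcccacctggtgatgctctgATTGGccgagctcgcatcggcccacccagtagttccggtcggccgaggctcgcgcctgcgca
Fads2, chr19:10101504-10101753, minus strand: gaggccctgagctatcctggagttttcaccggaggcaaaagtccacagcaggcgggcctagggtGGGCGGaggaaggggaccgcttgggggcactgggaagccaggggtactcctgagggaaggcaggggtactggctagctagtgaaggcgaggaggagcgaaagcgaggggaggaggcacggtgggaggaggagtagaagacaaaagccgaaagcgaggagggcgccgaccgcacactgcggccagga
Of the 39 members, 31 had an upstream sequence, with 39 start sites between them. None was available for Scd1, Scd2, Fads1, Sqle, Fdft1, Fdps, Stard4 and Abcg1, so the shares below leave these genes out. CCAAT lay in 16 of the 19 upstream sequences of sterol synthesis genes and in 8 of the 16 of fatty acid genes, against 33.8% of all 32851 upstream sequences. GGGCGG lay in 16 of 19 and 11 of 16, against 32.7% of all. CACGTG lay in 4 of 19 and 1 of 16, against 6.02% of all, and TCACCCCAC in Hmgcs1 among the members and in 0.496% of all. Fads2 held GGGCGG and none of the other 3 patterns in this window. These are matches of letters and not shown binding sites.

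None of the 39 genes passed the threshold between Nrg-1β1 and vehicle. Values below are deposited log2 values of a normalized count plus 4, and differences are Nrg-1β1 minus vehicle on that scale with the standard error of limma. At an unadjusted p of 0.05, 8 members were higher and 3 lower, against 6.15% and 6.86% of all genes. All 3 Nrg-1β1 libraries lay above all 3 vehicle libraries for 9 members, where 7.37% of all genes did so, and below them for 3 members, where 10.4% of all genes did so. In bulk RNA, more or fewer cells of a type and more or less RNA per cell cannot be told apart. Since each sample was a different animal, the spread between libraries includes that between animals.

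**Figure D1:**
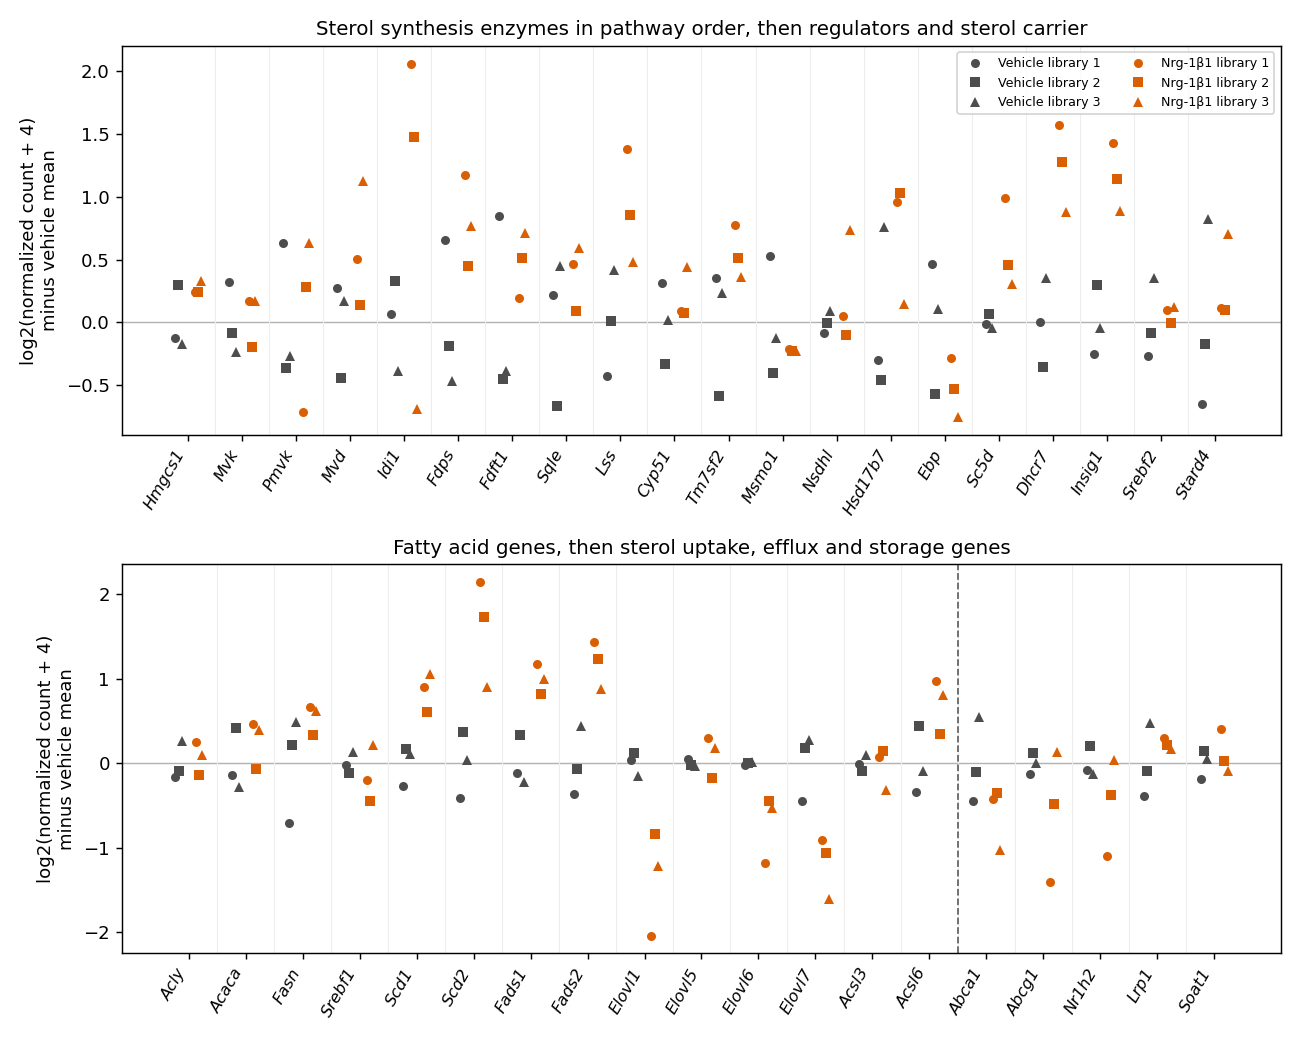
Deposited log2 values of each library minus the vehicle mean of the gene (y axis, log2 units) for the 39 genes (x axis), with sterol enzymes in pathway order in the upper panel and fatty acid and sterol transport genes in the lower. Grey symbols are the 3 vehicle and orange the 3 Nrg-1β1 libraries; Dhcr7, Insig1, Scd2 and Fads2 show no overlap, while Idi1 spreads from 6.90 to 9.65 within the Nrg-1β1 group.

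Among the 20 sterol synthesis genes, 18 had a positive difference and 2 a negative one, against 52.2% positive over all genes. The sign was not stable for 10 of the 20, which turned in at least 1 of the settings run: Ebp, Hmgcs1, Hsd17b7, Msmo1, Mvk, Nsdhl, Pmvk, Sqle, Srebf2 and Stard4. The median difference of all 20 was 0.43, where that over all genes was 0.03. It was 0.25 without vehicle library 2, the library in which the median member was lowest. The largest differences were in Dhcr7 and Insig1, and the other members ranged from -0.52 in Ebp to 0.95 in Idi1. None passed over all genes.

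Dhcr7 encodes the reductase of the last step to cholesterol. Its values were 6.47, 6.10 and 6.82 in vehicle libraries 1 to 3 and 8.03, 7.74 and 7.34 in Nrg-1β1 libraries 1 to 3. The groups did not overlap, and the smallest gap was between vehicle library 3 and Nrg-1β1 library 3. The difference was 1.24 ± 0.32 (SE), a 2.36-fold change with a 95% interval of 1.49 to 3.74, and it missed the threshold (adjusted p = 0.0599, limma). It rested on 50, 41 and 52 reads in the Nrg-1β1 libraries and on 21 reads in the shallow vehicle library 2.

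Insig1 encodes the endoplasmic reticulum protein that retains SREBP precursors and is itself an SREBP target. It was measured at 8.09, 8.64 and 8.30 in vehicle and at 9.78, 9.49 and 9.23 in Nrg-1β1. Every treated library was thus above every vehicle library, with vehicle library 2 the highest of its group. The difference was 1.16 ± 0.28 (SE), or 2.23-fold with a 95% interval of 1.48 to 3.36 (adjusted p = 0.0527, limma). Set against vehicle library 2 alone, through the term for read depth class, it was 0.86, and for Dhcr7 the same fit gave 1.60. Set against vehicle library 3 alone, through the term for the Y-linked class, Insig1 differed by 1.20 and Dhcr7 by 0.89.

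Lss, the cyclase that forms lanosterol, had 5.30, 5.74 and 6.14 in vehicle and 7.11, 6.58 and 6.21 in Nrg-1β1. Vehicle library 3 and Nrg-1β1 library 3 nearly met, and the difference of 0.91 ± 0.37 (SE) did not pass (adjusted p = 0.274, limma). Against vehicle library 3 alone it was 0.49. For Sc5d, which introduces a double bond late in the pathway, the vehicle libraries lay close together at 7.34, 7.42 and 7.30 and the Nrg-1β1 libraries at 8.34, 7.80 and 7.65. Its difference was 0.58 ± 0.29 (SE, adjusted p = 0.412, limma), so the groups were separate but close to each other.

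Idi1, the isomerase that makes the second isoprene building block, varied most within a group. Its values were 7.65, 7.92 and 7.20 in vehicle, and 9.65, 9.06 and 6.90 in Nrg-1β1. Nrg-1β1 libraries 1 and 2 were therefore well above vehicle, while library 3 was the lowest of all 6, on 38 reads. The difference of 0.95 ± 0.48 (SE) did not pass (adjusted p = 0.429, limma). It was 1.77 without Nrg-1β1 library 3 and 0.39 without library 1. Fdps, which makes farnesyl diphosphate, had 5.52, 4.68 and 4.40 in vehicle and 6.04, 5.31 and 5.63 in Nrg-1β1, with overlap and 7 reads in both vehicle library 2 and Nrg-1β1 library 2.

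The other 6 members before lanosterol had overlapping groups. Hmgcs1, which forms HMG-CoA and was the most abundant sterol enzyme among the members per kilobase of exon, had 9.93, 10.34 and 9.88 in vehicle and 10.29, 10.29 and 10.38 in Nrg-1β1. Its difference was 0.27 with a 95% interval of -0.33 to 0.87. The kinases Mvk and Pmvk differed by 0.05 (-0.69 to 0.78) and 0.06 (-0.74 to 0.86), and the decarboxylase Mvd by 0.59 (-0.16 to 1.34). Fdft1, squalene synthase, differed by 0.47 (-0.28 to 1.23), and Sqle, squalene epoxidase, by 0.38 (-0.31 to 1.07). All 6 intervals include 0.

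Between lanosterol and cholesterol the other members had differences of both signs. The demethylase Cyp51 differed by 0.20 ± 0.28 (SE), the reductase Tm7sf2 by 0.55 ± 0.40 and the ketoreductase Hsd17b7 by 0.71 ± 0.42. Nsdhl, a sterol dehydrogenase, differed by 0.23 ± 0.37. Msmo1, which removes methyl groups with Nsdhl, differed by -0.22 ± 0.29, and its 3 Nrg-1β1 libraries were almost equal at 8.29, 8.28 and 8.28. Ebp, the sterol isomerase, differed by -0.52 ± 0.43 on 6, 5 and 7 reads in the Nrg-1β1 libraries. Tm7sf2 had Nrg-1β1 values that were all above vehicle, at 6.04, 5.78 and 5.63 against 5.62, 4.68 and 5.50, with vehicle library 1 and Nrg-1β1 library 3 almost equal. Stard4, a carrier of sterol between membranes, differed by 0.31 ± 0.46 on 6, 6 and 16 reads.

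The transcripts of the 2 SREBP genes showed no detectable difference. Srebf2 had 8.46, 8.64 and 9.08 in vehicle and 8.82, 8.72 and 8.85 in Nrg-1β1, a difference of 0.07 with a 95% interval of -0.51 to 0.65. Srebf1 had 8.77, 8.68 and 8.93 against 8.59, 8.35 and 9.02, a difference of -0.14 with an interval of -0.73 to 0.44. The vehicle range held all Srebf2 values of the treated animals. The direction of both turned under some settings, Srebf2 to -0.28 against vehicle library 3 alone and Srebf1 to 0.07 when libraries were centred on their medians. SREBP activity is set by cleavage of the protein, which these data do not measure.

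Of 11 other genes of sterol synthesis and its control, 0 passed in either direction and 4 had a positive difference, against 52.2% of all genes. Their median was -0.29. The site 1 protease gene Mbtps1, whose product cuts SREBP, had 7.03, 7.10 and 7.34 in vehicle and 6.25, 6.51 and 6.79 in Nrg-1β1 (-0.64 ± 0.31 SE). Scap, the escort of SREBP to the Golgi, had 7.76, 7.61 and 7.64 against 7.11, 7.15 and 7.34 (-0.47 ± 0.28 SE). Both had groups that did not overlap, with Nrg-1β1 below, as did 10.4% of all genes. Neither passed (adjusted p = 0.387 and 0.517, limma). The cytochrome b5 reductase gene Cyb5r3 differed by 0.48 ± 0.32 (SE), with overlap. The median of these 11 genes and that of the 20 members thus lay on different sides of 0.

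**Figure D2:**
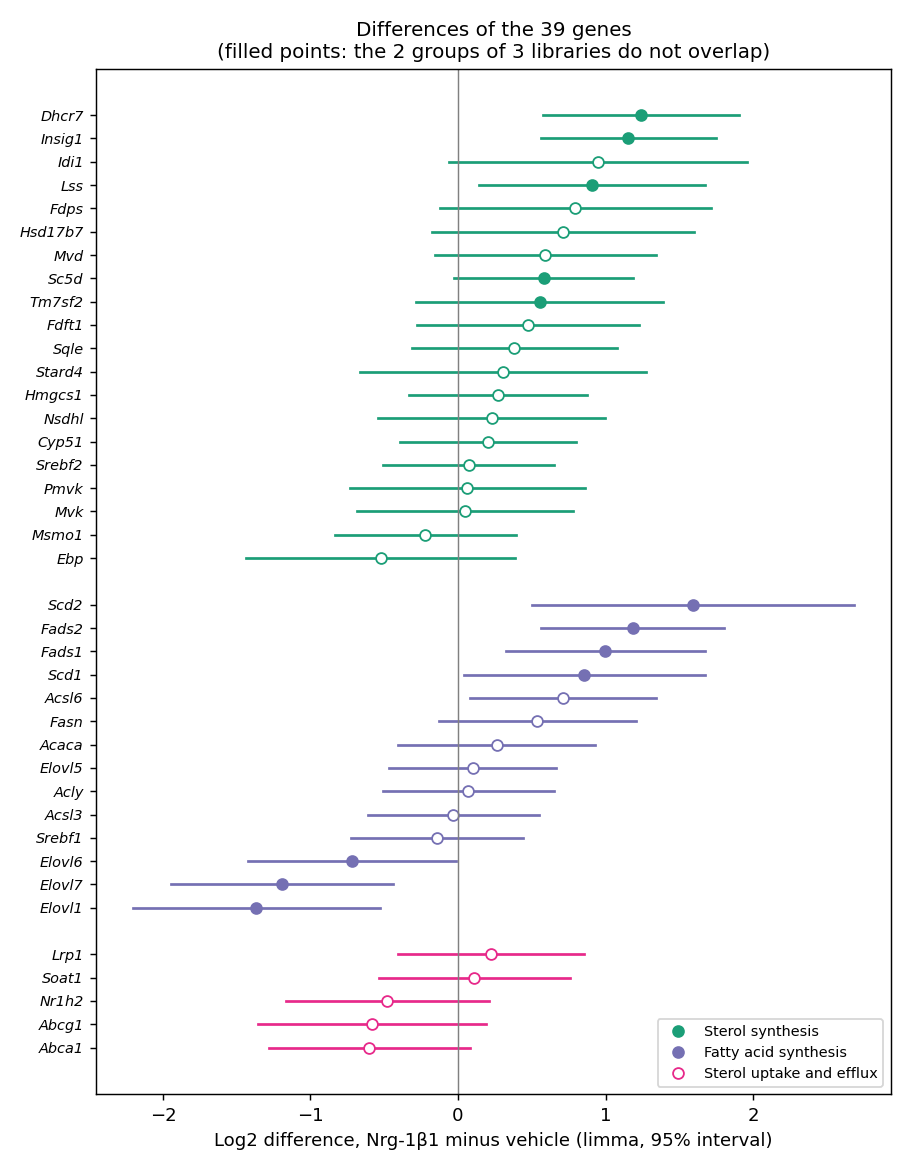
Log2 difference of each of the 39 genes, Nrg-1β1 minus vehicle (x axis, log2 units), with points at the limma estimate and bars for the 95% interval; colours mark the 3 roles, and filled points mark genes whose groups of 3 libraries do not overlap. The sterol synthesis genes reach from -0.52 to 1.24, the fatty acid genes from -1.37 to 1.59 and the uptake and efflux genes from -0.60 to 0.22.

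Fatty acid genes spread to both sides. Of 14 members 9 had a positive and 5 a negative difference, against 52.2% positive over all genes. Their median was 0.18, against 0.03 over all genes. Groups did not overlap for 7 members, 4 with Nrg-1β1 above and 3 below, against 7.37% and 10.4% of all genes. The 4 above were Scd1, Scd2, Fads1 and Fads2, and the 3 below were Elovl1, Elovl6 and Elovl7. None of the 14 passed the threshold. The 4 are desaturases and the 3 elongases, but the split does not hold over the wider families, whose other measured genes were named after their values were seen. Fads3, of the same family as Fads1 and Fads2, had 4.91, 4.68 and 5.52 in vehicle and 3.84, 3.83 and 3.71 in Nrg-1β1, on 2, 2 and 3 reads, with every Nrg-1β1 library below vehicle (-1.24 ± 0.49 SE, adjusted p = 0.264, limma). The elongase gene Elovl2 had 6.42, 6.59 and 6.30 against 7.27, 6.73 and 6.94, with every Nrg-1β1 library above (0.54 ± 0.31 SE, adjusted p = 0.492, limma). Elovl4 differed by 0.40 ± 0.49 (SE) with overlap, and Elovl3 had 0 reads in 3 libraries and at most 2 in the others.

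Scd2 encodes the main stearoyl-CoA desaturase of the brain, which makes oleate and palmitoleate. It was the most abundant member per length, with a mean of 2949 normalized counts per kilobase of exon (GENCODE M21 models), followed by Scd1 at 1252 and Fads1 at 520. Scd2 had 12.48, 13.26 and 12.94 in vehicle and 15.04, 14.63 and 13.80 in Nrg-1β1. The difference was 1.59 ± 0.52 (SE), or 3.02-fold with a 95% interval of 1.42 to 6.44, without passing (adjusted p = 0.156, limma). Scd1, the related enzyme best known from liver and fat, had 11.81, 12.24 and 12.18 against 12.99, 12.69 and 13.13, a difference of 0.86 ± 0.39 (SE, adjusted p = 0.354, limma). Every Nrg-1β1 library was above every vehicle library for both genes.

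The balance of the pair differed within the treated group. Reads of Scd2 per read of Scd1 were 1.60, 2.03 and 1.69 in vehicle, and 4.15, 3.85 and 1.59 in Nrg-1β1. Nrg-1β1 library 3 therefore lay at the vehicle ratio, and it was also the library with low Idi1. Together Scd1 and Scd2 made up 0.211%, 0.442% and 0.439% of the vehicle reads and 1.43%, 0.943% and 0.577% of the Nrg-1β1 reads.

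Of 23 other genes of fatty acid synthesis and activation, 2 rose and 0 fell, against 0.438% and 0.625% of all genes, and both were further desaturase genes of the Scd cluster. Scd3 had 6.04, 7.28 and 6.29 in vehicle and 9.26, 7.87 and 7.95 in Nrg-1β1, a rise of 1.83 ± 0.39 (SE, adjusted p = 0.0281, limma). Scd4 had 3.46, 5.65 and 4.44 against 8.17, 6.03 and 6.53, a rise of 2.39 ± 0.55 (SE, adjusted p = 0.044, limma), on 55, 12 and 29 reads in Nrg-1β1. Neither passed when any single library was left out. With a term for read depth class they differed by 1.08 and 1.26 from vehicle library 2 alone. The Scd genes are close copies. Of the 50-base stretches in transcripts of Scd3, 4.77% also occur in Scd1 and 3.89% in Scd2, and for Scd4 these shares were 2.26% and 1.64%. Reads of Scd3 amounted to 0.593% to 1.03% of those of Scd1 and Scd2 in vehicle and to 0.72% to 1.46% in Nrg-1β1, and reads of Scd4 to 0.0755% to 0.316% and 0.192% to 0.68%. How the counting divided shared reads is not given, and its part in these values was not tested.

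**Figure D3:**
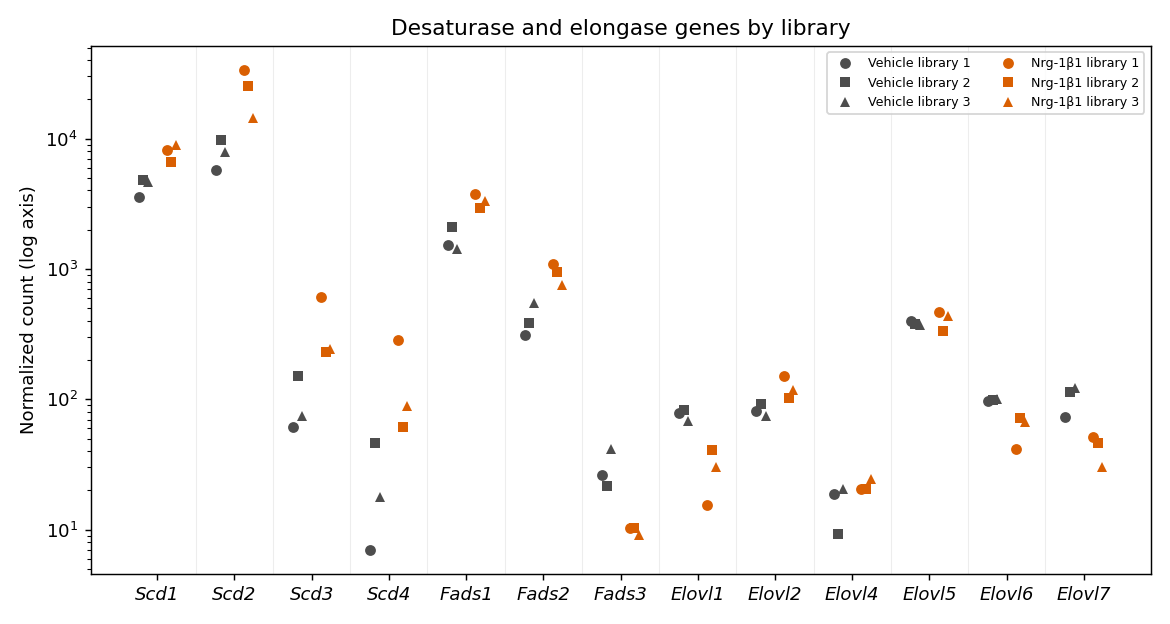
Normalized counts (log y axis) of 4 Scd, 3 Fads and 6 Elovl genes (x axis) in the 3 vehicle (grey) and 3 Nrg-1β1 (orange) libraries. Every Nrg-1β1 point lies above the vehicle points for Scd1 to Scd4, Fads1, Fads2 and Elovl2 and below them for Fads3, Elovl1, Elovl6 and Elovl7, while the points of Elovl4 and Elovl5 overlap; Elovl3, with 0 reads in 3 libraries, is not drawn.

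Fads1 and Fads2 encode the delta-5 and delta-6 desaturases, which make polyunsaturated fatty acids such as arachidonate and docosahexaenoate. Fads2 had 8.31, 8.60 and 9.11 in vehicle and 10.10, 9.91 and 9.55 in Nrg-1β1, a difference of 1.18 ± 0.30 (SE), or 2.27-fold with a 95% interval of 1.48 to 3.49 (adjusted p = 0.0566, limma). It was 0.74 against vehicle library 3 alone, where the vehicle value was highest. Fads1 had 10.58, 11.03 and 10.48 against 11.87, 11.52 and 11.69, a difference of 1.00 ± 0.32 (SE, adjusted p = 0.149, limma). Its difference was 0.67 against vehicle library 2 alone and 0.65 after quantile normalization. Groups were apart for both genes, and neither passed.

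Elongases add carbon pairs to fatty acids, and Elovl1 serves saturated chains of very long length such as those of myelin sphingolipids. Elovl1 had 6.36, 6.45 and 6.17 in vehicle and 4.29, 5.49 and 5.10 in Nrg-1β1, a difference of -1.37 ± 0.40 (SE, adjusted p = 0.105, limma). Only 3, 8 and 10 reads lay behind the Nrg-1β1 values. The exact Poisson 95% interval for the lowest ran from 2.85 to 5.62 on the log2 scale, and that of Nrg-1β1 library 2 from 4.44 to 6.40, which reaches into the vehicle range. Elovl7, an elongase found in oligodendrocytes, had 6.26, 6.89 and 6.98 against 5.80, 5.64 and 5.10 on 10, 9 and 10 reads (-1.19 ± 0.36 SE, adjusted p = 0.115, limma). Elovl6, which elongates palmitate to stearate, was almost equal in vehicle at 6.66, 6.68 and 6.70 and was 5.50, 6.24 and 6.15 in Nrg-1β1 (-0.72 ± 0.34 SE, adjusted p = 0.372, limma). Elovl5, which elongates polyunsaturated chains and was sequenced more deeply, differed by 0.10 with a 95% interval of -0.47 to 0.67.

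The 3 enzymes that build the chain had overlapping groups and intervals that include 0. Acly, which supplies cytosolic acetyl-CoA, differed by 0.07 (-0.51 to 0.65), and the carboxylase Acaca by 0.26 (-0.40 to 0.93). Fasn, fatty acid synthase, had 8.42, 9.34 and 9.62 in vehicle and 9.78, 9.46 and 9.74 in Nrg-1β1. Vehicle library 1 alone was low, and the difference of 0.54 (-0.13 to 1.20) was 0.05 against vehicle library 3 alone. Among the acyl-CoA synthetases, Acsl6, which favours docosahexaenoate in brain, had 8.82, 9.60 and 9.07 against 10.14, 9.51 and 9.97, with overlap (0.71 ± 0.30 SE, adjusted p = 0.304, limma). Acsl3 differed by -0.03 ± 0.28 (SE). Of the other fatty acid genes named by the smallest p, Mlxipl encodes the carbohydrate-responsive factor ChREBP. Mlxipl had 5.72, 5.97 and 5.79 in vehicle and 3.20, 4.27 and 4.97 in Nrg-1β1, without passing (-1.68 ± 0.49 SE, adjusted p = 0.101, limma). Only 1, 3 and 9 reads lay behind its Nrg-1β1 values.

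Sterol uptake, efflux and storage genes had overlapping groups for all 5 members, as did 16721 of all 20323 genes. Their median difference was -0.48, against 0.03 over all genes. Abca1, which loads cholesterol onto lipid-poor apolipoproteins, had 7.29, 7.63 and 8.28 in vehicle and 7.31, 7.39 and 6.70 in Nrg-1β1 (-0.60 ± 0.32 SE, adjusted p = 0.458, limma). Vehicle library 3 was high and Nrg-1β1 library 3 low, and the difference was -1.15 against vehicle library 3 alone and -0.33 without it. Abcg1, which passes sterol to lipoprotein particles, had 6.78, 7.03 and 6.91 against 5.50, 6.42 and 7.04 (-0.58 ± 0.37 SE, adjusted p = 0.541, limma). The Abcg1 difference was -0.17 without Nrg-1β1 library 1, where Abcg1 had 8 reads. Nr1h2, which encodes liver X receptor beta, had its Nrg-1β1 libraries in the same order, with 7.27, 7.56 and 7.23 against 6.25, 6.98 and 7.39 (-0.48 ± 0.33 SE, adjusted p = 0.591, limma), and was -0.17 without Nrg-1β1 library 1.

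Lrp1, an endocytic receptor for lipoproteins, had 9.51, 9.80 and 10.37 in vehicle and 10.19, 10.11 and 10.06 in Nrg-1β1 (0.22 ± 0.30 SE). Soat1, which esterifies cholesterol for storage, had 6.52, 6.85 and 6.75 against 7.11, 6.73 and 6.62 (0.11 ± 0.31 SE). Neither passed (adjusted p = 0.752 and 0.884, limma), and both turned sign under some settings, Lrp1 to -0.26 against vehicle library 3 alone. Of 18 other genes of uptake, efflux and storage 0 passed and 6 had a positive difference, against 52.2% of all genes. Their median was -0.30, against 0.03 over all genes. The high-density lipoprotein receptor gene Scarb1 had 5.84, 5.36 and 6.27 in vehicle and 4.90, 3.83 and 4.97 in Nrg-1β1 (-1.26 ± 0.45 SE, adjusted p = 0.214, limma). Its Nrg-1β1 values rested on 5, 2 and 9 reads. Stard3, a late endosomal sterol carrier, had 6.01, 6.23 and 6.10 against 5.13, 5.49 and 5.23 on 6, 8 and 11 reads (-0.83 ± 0.36 SE, adjusted p = 0.325, limma). Cyp46a1, the neuronal hydroxylase that converts cholesterol to the form that leaves the brain, had 6.65, 6.40 and 6.11 against 7.22, 7.20 and 6.90 (0.72 ± 0.31 SE, adjusted p = 0.318, limma). Groups were apart for these 3 genes. Of the 18 genes, 2 lay above vehicle in every Nrg-1β1 library and 3 below, against 7.37% and 10.4% of all genes.

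Markers of several cell types moved with the groups, and these lipid genes are expressed at different levels among such cells. The summed level of 7 astrocyte markers was 22220 to 33766 normalized counts in vehicle and 37622 to 42100 in Nrg-1β1. That of 6 neuron markers was 2684 to 4769 and 6830 to 9761. For 7 microglia markers it was 3181 to 6423 and 1193 to 1762, for 6 endothelial markers 454 to 2285 and 67.2 to 115, and for 4 choroid plexus markers 1414 to 4626 and 71.5 to 164. Of these markers 5 microglia, 6 endothelial and 4 choroid plexus genes passed, all lower in Nrg-1β1, against 0.625% of all genes. Among astrocyte markers 0 passed, and among neuron markers 1 did (Gria1, higher, against 0.438% of all genes). All 7 astrocyte and all 6 neuron markers had a positive difference, against 52.2% of all genes. Every Nrg-1β1 library lay above vehicle for 4 of the 7 astrocyte and 3 of the 6 neuron markers, against 7.37% of all genes. Groups overlapped for the other 3 of each. Sums of 7 oligodendrocyte markers overlapped, at 80732 to 178373 and 100694 to 134794, but most of each sum was Mbp. Of these 7, 6 had a negative difference and 0 passed, and Ugt8a (-1.08 ± 0.31 SE) and Mag (-0.89 ± 0.28 SE) lay below vehicle in every Nrg-1β1 library. Sums also overlapped, narrowly, for 5 oligodendrocyte progenitor markers, at 921 to 1855 and 1832 to 3208. Of these 5, 3 had a positive and 2 a negative difference, and 0 passed. Olig1 (1.11 ± 0.35 SE) and Pdgfra (0.90 ± 0.37 SE) lay above vehicle in every Nrg-1β1 library, against 7.37% of all genes. Sums of 7 neural progenitor markers did not overlap, at 626 to 969 and 1179 to 1328, while the median difference of these 7 was -0.92. Of these progenitor markers 1 passed, Sox1, higher in Nrg-1β1 (1.96 ± 0.39 SE, adjusted p = 0.0194, limma), against 0.438% of all genes. Dcx and Sox2 also had a positive difference and 4 had a negative one. Nes (-1.65 ± 0.42 SE) lay below vehicle in every Nrg-1β1 library. In the Nrg-1β1 libraries the choroid plexus gene Kcne2 had 0 reads, and Ly6a, Aif1, Kcnj13, Eomes and Neurod1 had 0 in at least 1. The part of these shifts in the lipid gene differences was not tested.

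**Figure D4:**
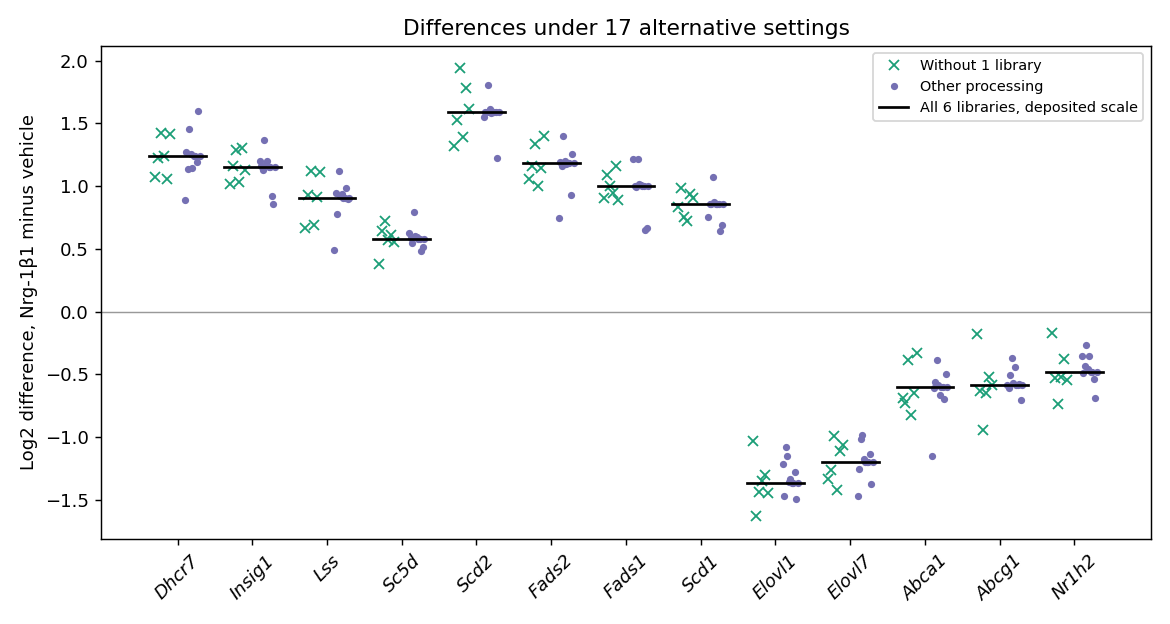
Log2 difference, Nrg-1β1 minus vehicle (y axis, log2 units), for 13 genes under all 6 libraries as deposited (black bars), with 1 library left out (crosses) and under the other settings (dots). The direction of each of the 13 is the same throughout, and the 17 of 39 members that turned in at least 1 setting are not drawn. Dhcr7 runs from 0.89 to 1.60, Scd2 from 1.23 to 1.94 and Abcg1 from -0.94 to -0.17.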

How the data were processed

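RNA from GFP-sorted hippocampal cells of 6 mice was analysed, 3 per group, grouped by sample title. Reads were handled with Trimmomatic and Bowtie2, per the submitters' processing notes; the genome build, read counter, strand setting, normalization and tool versions were not given in the sources used here. The authors deposited log2 values for 27102 genes, of which 6779 are blank throughout and 20323 were analysed. The lowest value is the log2 of 4. With 4 subtracted, 100% of the unlogged values were whole multiples of 1 step per library (within 0.02 of a read), so they were read as log2(normalized count + 4); no label or header states this scale. Recovered reads gave depths of 567073 to 72953034, and intervals on reads cover counting error only.

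Groups were compared with limma 3.58.1 (R 4.3.3) with an intensity trend on the deposited log2 values, with no covariate, and Benjamini-Hochberg adjustment over all genes at 0.05. limma-voom on the recovered reads was run as an alternative. Differences understate changes of genes with few reads. Library values are given for the members with the smallest p of each role (6 sterol, 5 fatty acid and all 5 uptake and efflux genes) and for the regulators Srebf1, Srebf2 and Insig1 and the pair Scd1 and Scd2; values of Hmgcs1, Msmo1, Tm7sf2, Elovl6, Acsl6, Fasn, Fads3 and Elovl2 were added after they were seen. Other pathway genes are up to 3 per list by p. The members, lists, tests and alternatives were chosen with earlier results of these data known. RefSeq upstream sequences (GRCm38.p6) were matched by gene number. Same-numbered animals are different mice, and the labels do not pair them.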

Additional observations from a re-analysis of the deposited data

How the results depend on the processing

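The count of 216 genes called by limma became 129 with a constant of 1 in the logarithm, 499 with libraries centred on their medians (335 higher and 164 lower), 22 with limma-voom on recovered reads and 49 when genes had to average 50 normalized counts. It became 21 without an intensity trend, 65 after quantile normalization, 100 with the Y-linked class and 0 with the read depth class as a term (1729 at an unadjusted p of 0.05). Leaving out 1 library gave 0 to 56: 0 without vehicle 2 or any Nrg-1β1 library, 4 without vehicle 3 and 56 without vehicle 1.

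Leaving the read depth and Y-linked terms aside, 0 of the 39 members were called in the settings run, with these exceptions. With library medians and with the replicate block, 3 members (Dhcr7, Insig1 and Fads2) were called. In those settings 499 and 627 of all 20323 genes were called. Centring on library medians moved the median of all genes to 0.25, that of the sterol synthesis genes from 0.43 to 0.64, of the fatty acid genes from 0.18 to 0.40 and of the uptake and efflux genes from -0.48 to -0.26. The read depth class gave 0.58 for sterol synthesis. Without 1 library these medians ran from 0.25 to 0.56, from 0.082 to 0.33 and from -0.53 to -0.17. The 2 calls among other fatty acid genes became 1 with a constant of 1 or of 16. They became 0 with limma-voom, the minimum of 50, no trend, quantile normalization or any library left out.

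Direction was kept by 22 of 39 members in every setting run and turned in at least 1 for 17. With the Y-linked class it turned in Acly (-0.19), Hsd17b7 (-0.048), Lrp1 (-0.26), Sqle (-0.065), Srebf2 (-0.28) and Stard4 (-0.52). With library medians it turned in Acsl3 (0.18) and Srebf1 (0.070). Quantile normalization turned Acly (-0.075), Elovl5 (-0.094), Hmgcs1 (-0.076), Lrp1 (-0.094) and Srebf2 (-0.14). The read depth class turned Acaca (-0.16), Acsl3 (0.060), Ebp (0.048), Hmgcs1 (-0.023), Msmo1 (0.18) and Soat1 (-0.027). Without 1 library, Acly ran from -0.019 to 0.20, Acsl3 from -0.12 to 0.11, Msmo1 from -0.42 to 0.042, Mvk from -0.070 to 0.21, Nsdhl from -0.024 to 0.39, Pmvk from -0.22 to 0.45, Soat1 from -0.035 to 0.21, Srebf1 from -0.33 to 0.0085, Srebf2 from -0.061 to 0.25 and Stard4 from -0.019 to 0.72. The cause was not tested.

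With the replicate number as a block 627 genes were called. Deviations of same-numbered libraries correlated at -0.126, -0.00167 and -0.181, and the animals share only a number. Depth limits the genes with few reads: 8 members had under 10 reads in at least 1 Nrg-1β1 library.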
